A study of Mus musculus with 12 samples.

Results

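Mir99b, Mirlet7e and Mir125a are 3 miRNA hairpins that lie beside each other on mouse chromosome 17, and their small RNAs were followed through 12 libraries of mouse embryonic stem cells. They are 3 of the 2202 miRNA genes of the GENCODE M21 annotation and were chosen by name and position; no measured value enters that rule, though earlier results of these data were known when it was set. A read counted for a hairpin if it was 18 nt or longer and matched the hairpin exactly on its own strand. Levels are given in CPM, the reads of a hairpin per 1000000 reads of the library. Each read stands for 1 small RNA, whole or in part, so no level is divided by hairpin length.

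In 8 libraries RNA came from clonal cell lines that make Ago2 from a doxycycline-driven gene. In the TT-FHAgo2 line this Ago2 carries FLAG and HA tags; in the TT-Ago2 line it carries none. Both lines were kept in 0.1 µg/mL doxycycline and induced with 2.5 µg/mL. From each line a FLAG antibody was used to precipitate RNA for 2 libraries (called the tagged IP and, where there is no FLAG to bind, the untagged IP), and starting RNA went into another 2 (the tagged input and the untagged input). Circularization was used for these, so RNA did not need a 5′ phosphate to be read. The other 4 are single libraries from a NEBNext kit, whose ligation does need the phosphate: TT-FHAgo2 cells with 2.5 µg/mL doxycycline, TT-FHAgo2 cells without doxycycline, Dicer null cells and wildtype cells, the last pair also without doxycycline. The series text speaks of stem cells without Ago proteins. Gel selection kept RNA between 18 and 75 nt for every library. Replicates A and B are the libraries with either of the codes in the titles; the reads of code A end at 50 nt and those of code B at 51 nt, so a longer RNA is read in part. The labels do not say that the replicates came from separate cultures, so p-values measure only the spread between these libraries.

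Drosha and Dicer cut a miRNA out of its hairpin in the nucleus and the cytoplasm, and an Argonaute protein keeps one strand of the resulting duplex and uses bases 2 to 8 of it, the seed, to find target mRNAs. The miR-99 family is known for targeting mTOR and insulin-like growth factor receptor transcripts. The let-7 family is known for holding down Lin28 and Hmga2, and Lin28 blocks let-7 maturation in embryonic stem cells. The miR-125 family is the vertebrate counterpart of lin-4, the first miRNA found in worms, and also targets Lin28. These 3 families sit together in several clusters of the mouse genome.

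On GRCm38 the 3 hairpins span 692 nt of the plus strand. Mir99b (ENSMUSG00000065396.1) lies at chr17:17830188-17830257, Mirlet7e (ENSMUSG00000105758.1) at chr17:17830352-17830444 and Mir125a (ENSMUSG00000065479.2) at chr17:17830812-17830879. The gap between Mir99b and Mirlet7e is 94 nt and that between Mirlet7e and Mir125a is 367 nt. All 3 lie within Spaca6 (ENSMUSG00000080316.11, chr17:17827158-17843009), a sperm membrane protein gene on the same strand. Mir99b and Mirlet7e fall in an intron of 2 of its 16 transcripts and overlap no exon. Mir125a falls in an intron of 2 transcripts and overlaps an exon of 1. A predicted miRNA gene on the opposite strand, Gm25927, covers Mirlet7e and had no reads in any library.

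The mature sequences show what sets the 3 apart and what each shares with its relatives on other chromosomes. They are from RefSeq (GRCm38.p6), 5′ to 3′, with the seed, bases 2 to 8, in capitals.
miR-99b-5p: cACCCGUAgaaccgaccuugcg
miR-99b-3p: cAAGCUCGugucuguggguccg
let-7e-5p: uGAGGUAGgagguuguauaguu
let-7e-3p: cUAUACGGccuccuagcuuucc
miR-125a-5p: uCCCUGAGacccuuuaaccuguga
miR-125a-3p: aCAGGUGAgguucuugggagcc
miR-99a-5p: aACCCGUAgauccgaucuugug
miR-100-5p: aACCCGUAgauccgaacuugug
let-7a-5p: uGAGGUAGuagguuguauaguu
miR-125b-5p: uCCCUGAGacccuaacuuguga
The 3 members share no seed with each other, while each shares its 5p seed with its relative. Counted from 1 at the 5′ end, with the member's base first, miR-99b-5p differs from miR-99a-5p by C1A, A11U, C16U and C21U, and from miR-100-5p by C1A, A11U, C16A and C21U. Let-7e-5p differs from let-7a-5p by G9U alone. MiR-125a-5p and miR-125b-5p, set base against base, differ at 7 positions, the first of them U14A. No gap was allowed though they differ in length, at 24 and 22 nt, so bases past the first difference may be counted out of register.

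The hairpins as annotated in GENCODE M21 are printed next to show where the reads fell, with the most frequent exact read of each arm over all 12 libraries in capitals.
Mir99b: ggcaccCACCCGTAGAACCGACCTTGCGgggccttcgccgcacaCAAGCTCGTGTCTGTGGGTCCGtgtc
Mirlet7e: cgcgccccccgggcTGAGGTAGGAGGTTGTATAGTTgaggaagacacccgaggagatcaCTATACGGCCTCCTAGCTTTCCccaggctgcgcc
Mir125a: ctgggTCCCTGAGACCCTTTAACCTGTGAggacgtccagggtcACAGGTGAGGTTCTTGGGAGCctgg
The most frequent exact 5p read began and ended where RefSeq places the mature miRNA in all 3 hairpins, at bases 7 to 28 of Mir99b, 15 to 36 of Mirlet7e and 6 to 29 of Mir125a. It was read 31760 times for Mir99b, 605 times for Mirlet7e and 27904 times for Mir125a. For Mirlet7e a 5p form with an untemplated T before the miRNA, given below, was more frequent. The most frequent exact 3p read was read 1292 times for Mir99b, 61 times for Mirlet7e and 763 times for Mir125a, and that of Mir125a was 1 base shorter than the RefSeq miRNA.

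The libraries held 14474875 to 78762632 reads. A count of 0 allows up to 0.0468 to 0.255 CPM (upper limit of the exact binomial interval), depending on the library. Intervals and floors cover counting error only, since a PCR copy counts like a molecule of its own. All miRNA hairpins together took 58.3% (A) and 50.7% (B) of the tagged IP, against 9.19% and 13.1% of the untagged IP. Their share of the tagged input was 3.07% and 1.81%, and that of the untagged input 3.32% and 3.36%. They took 10.3% with doxycycline, 1.30% without it, 1.42% in Dicer null cells and 21.1% in wildtype cells. Of 10 miRNAs that mark embryonic stem cells (the miR-290 to miR-295 and miR-302 groups), 9 had reads in 11 libraries and 8 in cells without doxycycline. No read was counted under the name Mir292a in any library, and whether the annotation holds a hairpin of that name was not tested. The list's summed level ran from 205 CPM in Dicer null cells to 306862 CPM in tagged IP A. The muscle list stayed at 0 to 11.4 CPM and liver Mir122 at 0 to 3.72 CPM. The fibroblast list reached 592 CPM and the neural list 779 CPM, both in tagged IP B. The blood list reached 4692 CPM in tagged IP A, nearly all of it Mir142, while blood Mir223 was read in 1 library at 0.0565 CPM. The part of these other lists in the results was not tested. In bulk RNA, fewer cells of a type and less RNA per cell cannot be told apart.

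All 3 hairpins were higher in the tagged IP than in the untagged IP when counted per read of the library, by close to the median of all hairpins. Mir99b stood at 564 CPM (A) and 634 CPM (B) in the tagged IP, against 79.4 and 126 CPM in the untagged IP. Mir125a stood at 792 and 1345 CPM in the tagged IP, against 68.2 and 347 CPM in the untagged IP. Mirlet7e stood at 22.6 and 12.5 CPM in the tagged IP, against 3.61 and 3.18 CPM in the untagged IP. The tagged libraries lay above the untagged ones for each hairpin, and the untagged IP libraries differed most for Mir125a, where replicate B was far above replicate A. In edgeR's quasi-likelihood test with Benjamini-Hochberg adjustment over the 698 hairpins that passed the filter on low counts, all 3 members among them, the log2 fold change was 2.54 for Mir99b (SE 0.61, adjusted p = 0.00385), 2.36 for Mirlet7e (SE 0.65, adjusted p = 0.00457) and 2.36 for Mir125a (SE 0.72, adjusted p = 0.00718). The 3 members were thus 3 of 546 hairpins that rose, 78.2% of those tested, and the median over all hairpins was 2.42. Leaving out untagged IP A put Mir125a at 1.62 (adjusted p = 0.0802 in the same edgeR test), and leaving out untagged IP B put it at 3.97. Its call was also lost without tagged IP B (1.93, adjusted p = 0.0679, edgeR), and that of Mirlet7e without tagged IP A (1.87, adjusted p = 0.0650, edgeR).

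These fold changes depend on what a hairpin's reads are divided by. With all hairpin reads of a library as its size, the median over all hairpins moved to 0.10, and Mir99b was at 0.28, Mirlet7e at -0.0032 and Mir125a at 0.24, none of them past the threshold in edgeR. Of the 570 hairpins tested on that scale 0 were called higher and 122 lower, with 136 at an unadjusted p under 0.05. Of 698 tested, DESeq2 called 0 higher and 103 lower and TMM factors 1 higher and 98 lower. Per read of the library 546 were called higher and 57 lower, also of 698. Measured per 1000000 hairpin reads, Mir99b took 967 and 1250.0 in the tagged IP, against 864 and 967 in the untagged IP. Mirlet7e took 38.8 and 24.6 in the tagged IP, against 39.3 and 24.4 in the untagged IP. Mir125a took 1358 and 2652 in the tagged IP, against 742 and 2658 in the untagged IP. On this scale the 2 pull-downs overlapped for all 3 hairpins. TMM factors gave 0.20, -0.025 and 0.13 for Mir99b, Mirlet7e and Mir125a, and DESeq2's size factors gave 0.18, -0.064 and 0.12, so the direction for Mirlet7e turned.

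All 3 hairpins stood far higher in the tagged IP than in its own input, per read of the library. The tagged input held 12.3 and 9.37 CPM of Mir99b and 25.1 and 16.6 CPM of Mir125a, far below the tagged IP levels given above. Mirlet7e was at the edge of detection in the tagged input, with 6 reads (0.401 CPM) in A and 3 reads (0.161 CPM) in B. In edgeR's quasi-likelihood test the log2 fold change was 5.79 for Mir99b (SE 0.71, adjusted p = 7.75e-06), 5.96 for Mirlet7e (SE 0.81, adjusted p = 7.75e-06) and 5.68 for Mir125a (SE 0.84, adjusted p = 1.04e-05). They were 3 of 582 hairpins that rose, 83.4% of those tested, and the median was 4.86. Their calls held without any one library, and leaving out tagged input A moved Mirlet7e to 6.70.

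Within hairpin reads the tagged IP still held more of all 3 hairpins than its input did, but with exact matches only Mir99b was called. Mir99b took 967 and 1250.0 per 1000000 hairpin reads in the tagged IP, against 401 and 519 in the tagged input. Mirlet7e took 38.8 and 24.6, against 13.1 and 8.94 in the tagged input, and Mir125a 1358 and 2652, against 816 and 918. With hairpin reads as library size the log2 fold change of Mir99b was 1.27 (adjusted p = 0.0255, edgeR). On that scale 35 of 570 hairpins tested were called higher and 154 lower. Per read of the library 582 of 698 were called higher and 57 lower. TMM factors gave 1.17 (adjusted p = 0.0332, edgeR) and DESeq2 gave 1.05 (adjusted p = 0.0225). Mirlet7e was at 1.5 and Mir125a at 1.21 with hairpin reads as library size, with adjusted p of 0.0919 and 0.149 in edgeR. The median of all hairpins on that scale was 0.25.

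The untagged IP, which has no FLAG to hold Ago2, also stood above its input for all 3 hairpins. Mir99b had 79.4 and 126 CPM in the untagged IP, against 22.4 and 21.8 CPM in the untagged input. Mir125a had 68.2 and 347 CPM in the untagged IP, against 37.1 and 26.7 CPM in the untagged input. Mirlet7e had 3.61 and 3.18 CPM in the untagged IP, against 0.960 and 0.829 CPM in the untagged input, where it rested on 16 and 12 reads. The groups did not overlap for any of the 3, and the log2 fold change was 2.22 for Mir99b (SE 0.61, adjusted p = 0.0129), 1.92 for Mirlet7e (SE 0.68, adjusted p = 0.0284) and 2.70 for Mir125a (SE 0.73, adjusted p = 0.0124) in edgeR's quasi-likelihood test. These were 3 of 342 hairpins that rose, 49.0% of those tested, with a median of 1.91. The calls were less firm than those of the tagged IP over its input: without untagged IP B, Mir125a stood at 1.09 (adjusted p = 0.272, edgeR) and 80 hairpins were called higher and 4 lower, and without untagged input B 8 were called higher and 5 lower, none of the 3 among them. Without untagged IP A, Mir125a stood at 3.44. The calls of Mir99b were also lost without untagged input A (adjusted p = 0.0548, edgeR) or untagged IP B (adjusted p = 0.0789, edgeR), and those of Mirlet7e without each of 6 libraries in turn. With hairpin reads as library size 2 of 570 hairpins tested were called higher and 49 lower, against 342 and 17 of 698 per read of the library. None of the 3 was called on that scale: Mir99b stood at 0.47, Mirlet7e at 0.24 and Mir125a at 0.83.

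The gain from input to IP was larger in the tagged line than in the untagged line for each member. As a difference of log2 fold changes it was 3.57 for Mir99b (SE 0.85, adjusted p = 0.0170), 4.05 for Mirlet7e (SE 1.02, adjusted p = 0.0170) and 2.98 for Mir125a (SE 0.99, adjusted p = 0.0220) in edgeR's quasi-likelihood test. They were 3 of 385 hairpins with a larger gain, 55.2% of those tested, and the median difference was 2.84. With hairpin reads as library size none of the 3 was called. Of 570 hairpins tested that way 0 had a larger and 85 a smaller gain, against 385 and 31 of 698 per read of the library. In edgeR 0 hairpins were called without tagged IP A, without tagged IP B or without tagged input B, where 399, 383 and 401 had an unadjusted p under 0.05. Without untagged IP A 78 had a larger gain and 11 a smaller one, and without untagged input A 136 and 19, in each case without a call for Mir125a, which stood at 2.24 without untagged IP A and at 4.59 without untagged IP B. Mirlet7e stood at 4.79 without tagged input A. The difference in gain takes in the log2 gap between the tagged and untagged inputs, at -1.03 for Mir99b, -1.68 for Mirlet7e and -0.62 for Mir125a. For Mirlet7e that gap rests on 6 and 3 reads against 16 and 12.

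The test called no difference between the inputs of the 2 lines at this depth, though their levels did not overlap for the 3 hairpins. The log2 fold change of the tagged over the untagged input was -1.03 for Mir99b (SE 0.59), -1.68 for Mirlet7e (SE 0.79) and -0.62 for Mir125a (SE 0.69), each with an adjusted p of 1 in edgeR's quasi-likelihood test. No hairpin was called higher there, 0% of those tested, or lower; 23 had an unadjusted p under 0.05, and DESeq2 called 0 as well. For Mir99b and Mir125a both tagged inputs lay below both untagged inputs. So they did for Mirlet7e, which had 6 and 3 reads in the tagged input, against 16 and 12 in the untagged input, and an unadjusted p of 0.0458 in edgeR.

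**Figure D1:**
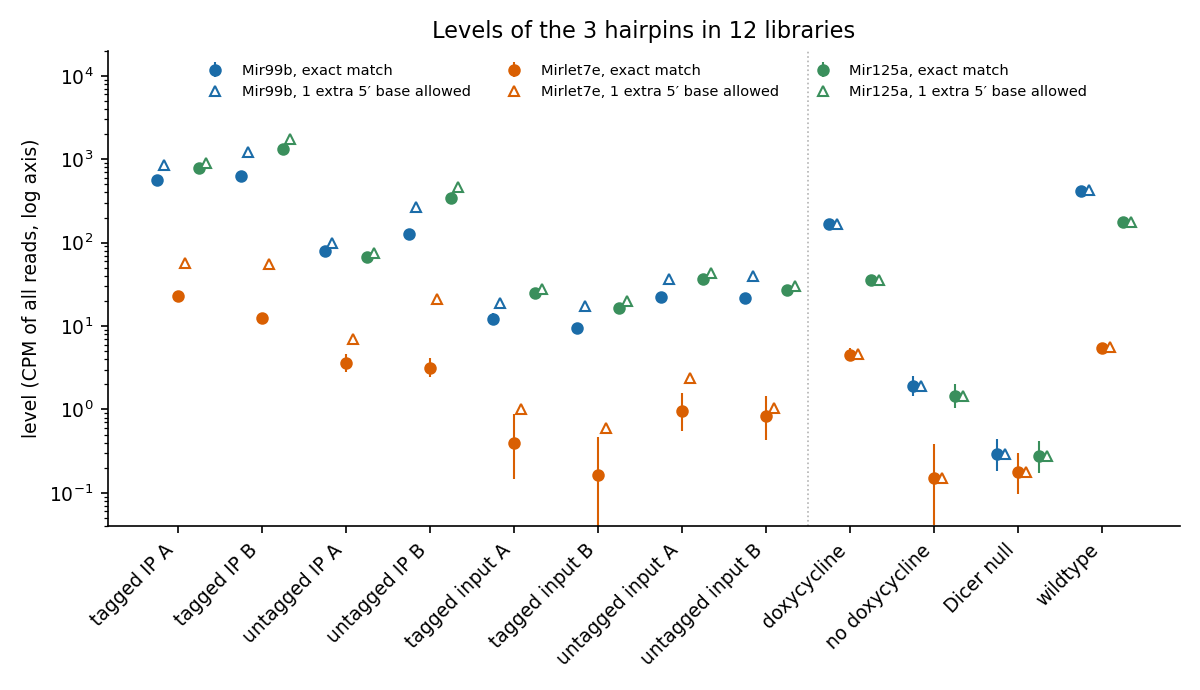
Level of each hairpin in each library in CPM of all reads (log axis), as exact matches (filled circles, bars are exact binomial intervals) and with 1 untemplated 5′ base allowed (open triangles); the dotted line parts the circularization libraries on the left from the ligation libraries on the right. Mirlet7e lies below the other 2 in all 12 libraries, and allowing the extra base lifts the circularization libraries but hardly the ligation libraries.

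**Figure D2:**
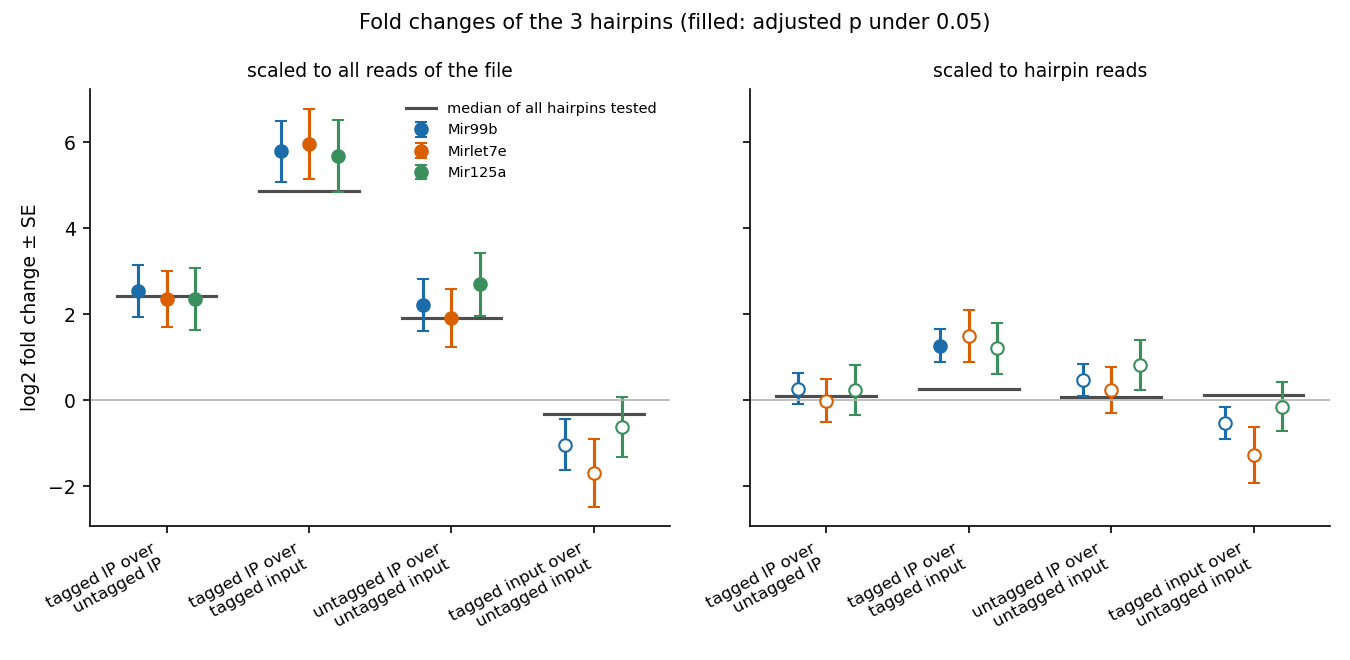
Log2 fold change ± SE of the 3 hairpins in 4 comparisons, with all reads of the file as library size (left) and with hairpin reads as library size (right); grey bars are the median of all hairpins tested and filled points have an adjusted p under 0.05 in edgeR. On the left all 3 members are filled in the 3 comparisons of an IP; on the right only Mir99b in the tagged IP over its input is, and Mirlet7e in the tagged over the untagged IP lies at -0.0032.

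Of the 3 hairpins, Mirlet7e was the lowest in every library, and the order of the other 2 differed between the protocols. Mirlet7e took 1.64% (A) and 0.626% (B) of the cluster's reads in the tagged IP, 2.18% with doxycycline and 0.901% in wildtype cells. Mir99b reads outnumbered those of Mirlet7e 24.9 and 50.9 to 1 in the tagged IP and 77.6 to 1 in wildtype cells; with 1 untemplated 5′ base allowed it was 15.0 and 21.8 to 1 in the tagged IP and 76.1 to 1 in wildtype cells. Mir125a was above Mir99b in 7 of 8 circularization libraries, by a factor of 1.40 and 2.12 in the tagged IP, 2.75 in untagged IP B, 2.04 and 1.77 in the tagged input and 1.66 and 1.23 in the untagged input. The exception was untagged IP A, at 0.859. In the ligation libraries Mir125a was at 0.211 of Mir99b with doxycycline and at 0.417 of it in wildtype cells. It was at 0.765 of it without doxycycline and at 0.957 in Dicer null cells, where the pair stood at 39 against 51 and 22 against 23 reads and their intervals overlapped. The tagged input and the ligation library with doxycycline come from the same line at the same dose, so the ratios of 2.04 and 1.77 and of 0.211 differ between protocols within one kind of cells; the part of the protocol in this was not tested further. With 1 untemplated 5′ base allowed, Mir125a was at 1.06 and 1.45 times Mir99b in the tagged IP and at 0.762 of it in untagged input B, so the order of this pair also turns with the matching.

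The make-up of the cluster's reads did not separate the IPs from each other or from the tagged input. Mir99b made up 36.4% ± 6.41 of cluster reads in the tagged IP, against 34.2% ± 2.34 in its input (SD, n = 2 each; exact permutation test, two-sided, p = 1). Mir125a made up 62.5% ± 7.13 in the tagged IP, against 59.0% ± 19.6 in its untagged counterpart (SD, n = 2 each; exact permutation test, two-sided, p = 1). The groups overlapped for each hairpin in these comparisons. With 2 libraries against 2, the smallest p this test can give is 0.33.

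**Figure D3:**
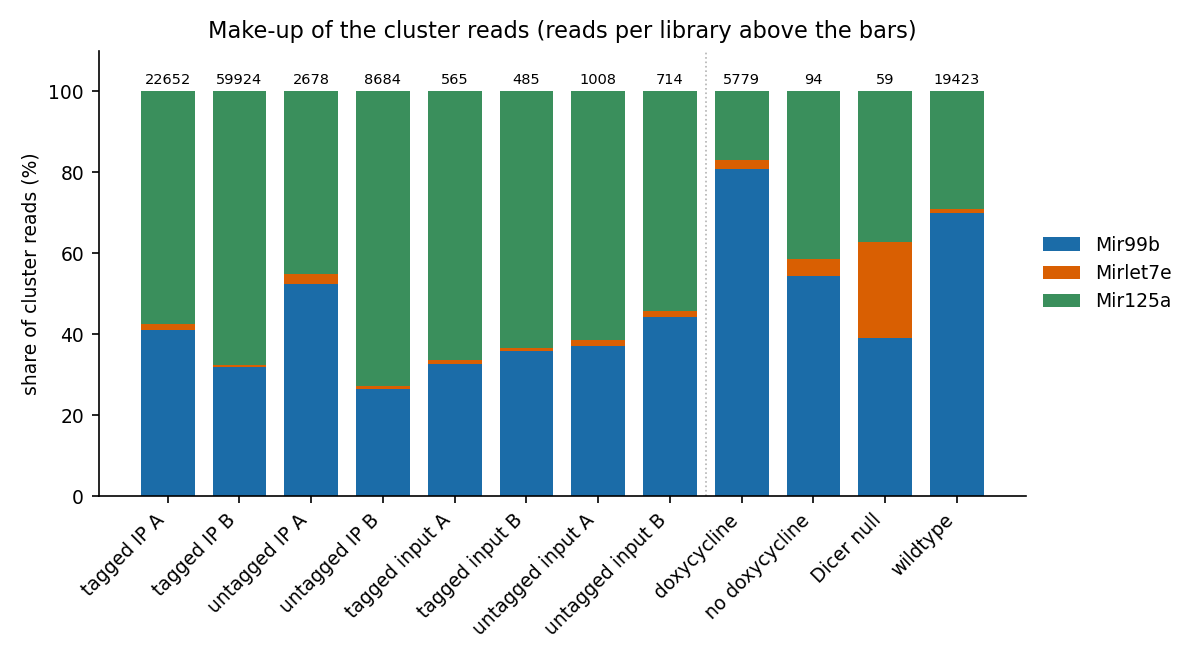
Share of the cluster's exact reads from each hairpin in each library (%), with the number of reads above each bar. Mir125a is the widest band in 7 of 8 circularization libraries and Mir99b in all 4 ligation libraries; the libraries without doxycycline and from Dicer null cells rest on 94 and 59 reads.

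Most reads came from the 5p arm, which holds the strand that each of these hairpins is best known for. The 3p arm gave 3.58% (A) and 3.39% (B) of Mir99b reads in the tagged IP, against 5.43% and 6.32% in the tagged input and 4.84% and 4.21% in the untagged IP. It gave 2.98% and 2.63% of Mir125a reads in the tagged IP, against 10.4% and 13.3% in the tagged input. For both hairpins the tagged IP lay below its input without overlap (exact permutation test, two-sided, p = 0.33, the smallest possible). With each distinct sequence counted once, the difference for Mir125a turned to 1.5 percentage points higher in the tagged IP, and that of Mir99b between the tagged and untagged IP to 4.27 points higher. Such a count grows with read depth, and Mir125a had 13014 and 40470 reads in the tagged IP but 375 and 308 in the tagged input. These turns therefore cannot be told apart from depth. In the untagged line the 3p share of Mir125a was 8.20% and 1.80% in the untagged IP, against 11.0% and 20.7% in the untagged input, again without overlap. For Mir125a the tagged and untagged IPs overlapped. For Mirlet7e the 3p share was 7.53% and 20.3% in the tagged IP, against 15.6% and 13.8% in the untagged IP. All these shares count exact matches, which leave out 5p reads with 1 untemplated 5′ base. Such reads averaged 71.5% of Mirlet7e 5p reads for the tagged IP and 69.4% for its untagged counterpart. The exact match thus overstates the Mirlet7e 3p share there, and the spread of these shares cannot be told apart from the matching. Such reads were rare with ligation, so 3p shares cannot be compared between the protocols. In the ligation libraries the 3p share of Mir99b was 5.96% with doxycycline and 5.04% in wildtype cells, and that of Mir125a 2.84% and 1.96%. Without doxycycline it was 21.6% for Mir99b, 11 of 51 reads, and 43.6% for Mir125a, 17 of 39 reads, above the intervals of both deeper libraries. In the inputs Mirlet7e had too few reads to place, with 0 of 6 and 3 of 3 reads in the tagged input and 8 of 16 and 9 of 12 in the untagged input.

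Counted arm by arm, with each hairpin split at its middle, both arms of all 3 hairpins rose in the tagged IP over its input. The log2 fold changes were 5.82 for the 5p and 5.04 for the 3p arm of Mir99b, 6.31 and 4.50 for those of Mirlet7e and 5.82 and 3.61 for those of Mir125a, with adjusted p from 2.62e-05 to 0.000351 in edgeR's quasi-likelihood test. Of 940 arms tested 84.3% rose, with a median of 4.75. The 3p arm of Mir125a lay below the median (SE 0.67), and its 5p arm and both arms of Mir99b lay above it. The Mirlet7e arms had SEs of 1.04 (5p) and 0.94 (3p). They rest on 6 tagged input reads in A, all 5p, and 3 in B, all 3p, so their place beside the median cannot be judged. Over the untagged IP, all 6 arms rose by 2.07 to 2.56, where 79.5% of arms rose and the median was 2.43. In the untagged IP over its input the 5p arms rose, by 2.27 for Mir99b, 3.03 for Mirlet7e and 2.89 for Mir125a (adjusted p = 0.0175, 0.0234 and 0.0175, edgeR). The 3p arms were at 1.47, -0.13 and 0.30 and did not pass the threshold (adjusted p = 0.0646, 0.903 and 0.685, edgeR). There 41.2% of arms rose, with a median of 1.77. The difference between arms was tested only as the 3p share above.

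**Figure D4:**
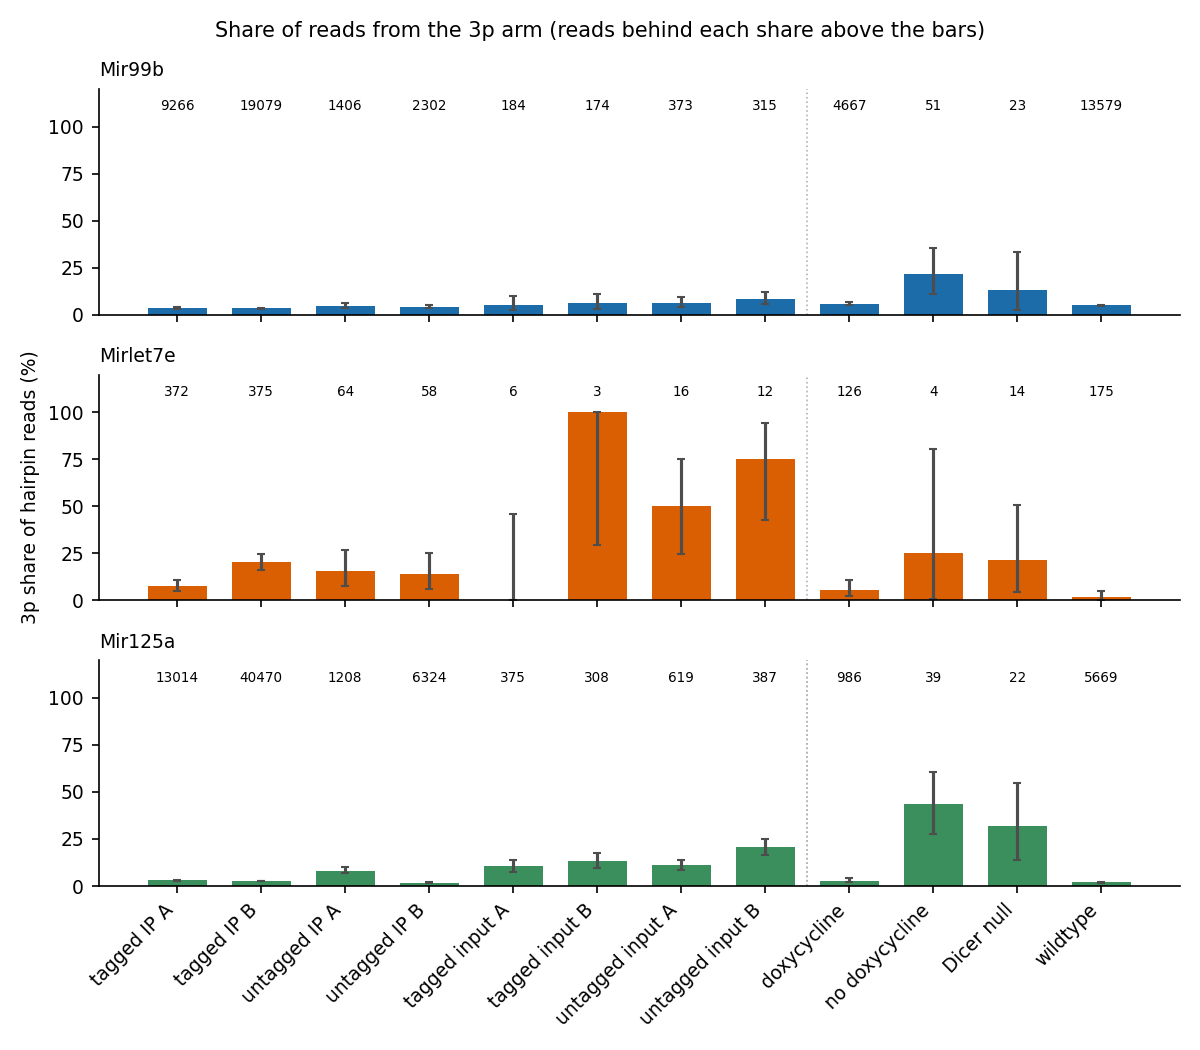
Share of exact reads from the 3p arm of each hairpin in each library (bars, %, with exact binomial intervals), with the reads behind each share above the bars. Mir99b and Mir125a are highest without doxycycline, at 21.6% and 43.6% of 51 and 39 reads; the Mirlet7e shares of the inputs rest on 3 to 16 reads.

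Reads with 1 extra base before the 5p miRNA were common in the circularization libraries and rare in the ligation libraries. The base was not in the hairpin, so the exact match leaves these reads out. For Mirlet7e they made up 61.9% (A) and 81.1% (B) of 5p reads in the tagged IP, against 0.833% with doxycycline and 2.27% in wildtype cells. For Mir99b the share was 34.3% and 48.1% in the tagged IP, against 0.408% with doxycycline and 0.309% in wildtype cells. For Mir125a it was 12.2% and 23.8% in the tagged IP, against 0.416% with doxycycline and 0.608% in wildtype cells. Over all hairpins it was 16.0% and 28.3% in the tagged IP, so Mirlet7e and Mir99b lay above that level and Mir125a below it in both replicates. The same order of the 3 was seen in the untagged IP (52.2% and 86.6% for Mirlet7e, 21.0% and 53.2% for Mir99b, 8.65% and 25.6% for Mir125a), where replicate B was again higher than replicate A. The share did not separate the tagged IP from the untagged IP or from the tagged input, since the groups overlapped for each hairpin.

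The extra base was mostly T. The most frequent 5p reads of the circularization libraries are printed here against the hairpin sequences above, with the untemplated base in capitals.
Mirlet7e, with the extra base: Ttgaggtaggaggttgtatagtt
Mirlet7e, without it: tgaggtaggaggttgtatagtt
Mir99b, with the extra base: Tcacccgtagaaccgaccttgcg
Mir99b, without it: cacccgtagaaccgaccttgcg
Mir125a, with the extra base: Ttccctgagaccctttaacctgtga
Mir125a, without it: tccctgagaccctttaacctgtga
In the 8 circularization libraries together, the Mirlet7e form with T had 1598 of 3322 5p reads (48.1%) and the form without it 372 (11.2%). The Mir99b form with T had 14801 of 62090 reads (23.8%) and the form without it 17296 (27.9%). The Mir125a form with T had 6532 of 80431 reads (8.12%) and the form without it 25343 (31.5%). In the 4 ligation libraries the forms without T led for Mirlet7e, with 233 of 391 reads (59.6%), and for Mir99b, with 14464 of 20751 (69.7%), and no 5p read had a T in that place for any of the 3 hairpins. In the tagged IP, T just before the miRNA was on 58.5% and 75.2% of Mirlet7e 5p reads, 26.7% and 37.7% of those of Mir99b and 9.66% and 18.8% of those of Mir125a. The base that the hairpin itself has there is C in Mir99b and Mirlet7e and G in Mir125a.

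The extra base changes how much of the cluster an exact match sees. With it allowed, Mirlet7e stood at 56.7 and 55.3 CPM in the tagged IP, against 6.94 and 20.9 CPM in the untagged IP and 1.0 and 0.592 CPM in the tagged input. Mir99b stood at 852 and 1207 CPM in the tagged IP, against 99.6 and 267 CPM in the untagged IP. Mir125a stood at 899 and 1755 CPM in the tagged IP, against 74.4 and 465 CPM in the untagged IP. The members stayed called in the 4 contrasts that had called them in edgeR, and the log2 fold change that moved most was that of Mirlet7e in the untagged IP over its input, at 3.01 in place of 1.92. In a relative of Mirlet7e the hairpin itself has the T: of 11 let-7 hairpins that hold the start of let-7e-5p, Mirlet7a-2 and Mirlet7c-1 have T before it. Reads unique to Mirlet7c-1 stood at 58.0 and 207 CPM in the tagged IP and at 0 in all 4 ligation libraries. Reads unique to Mirlet7a-2 stood at 86.0 and 79.8 CPM in the tagged IP, against 1 read with doxycycline and 0 in the other 3 ligation libraries.

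**Figure D5:**
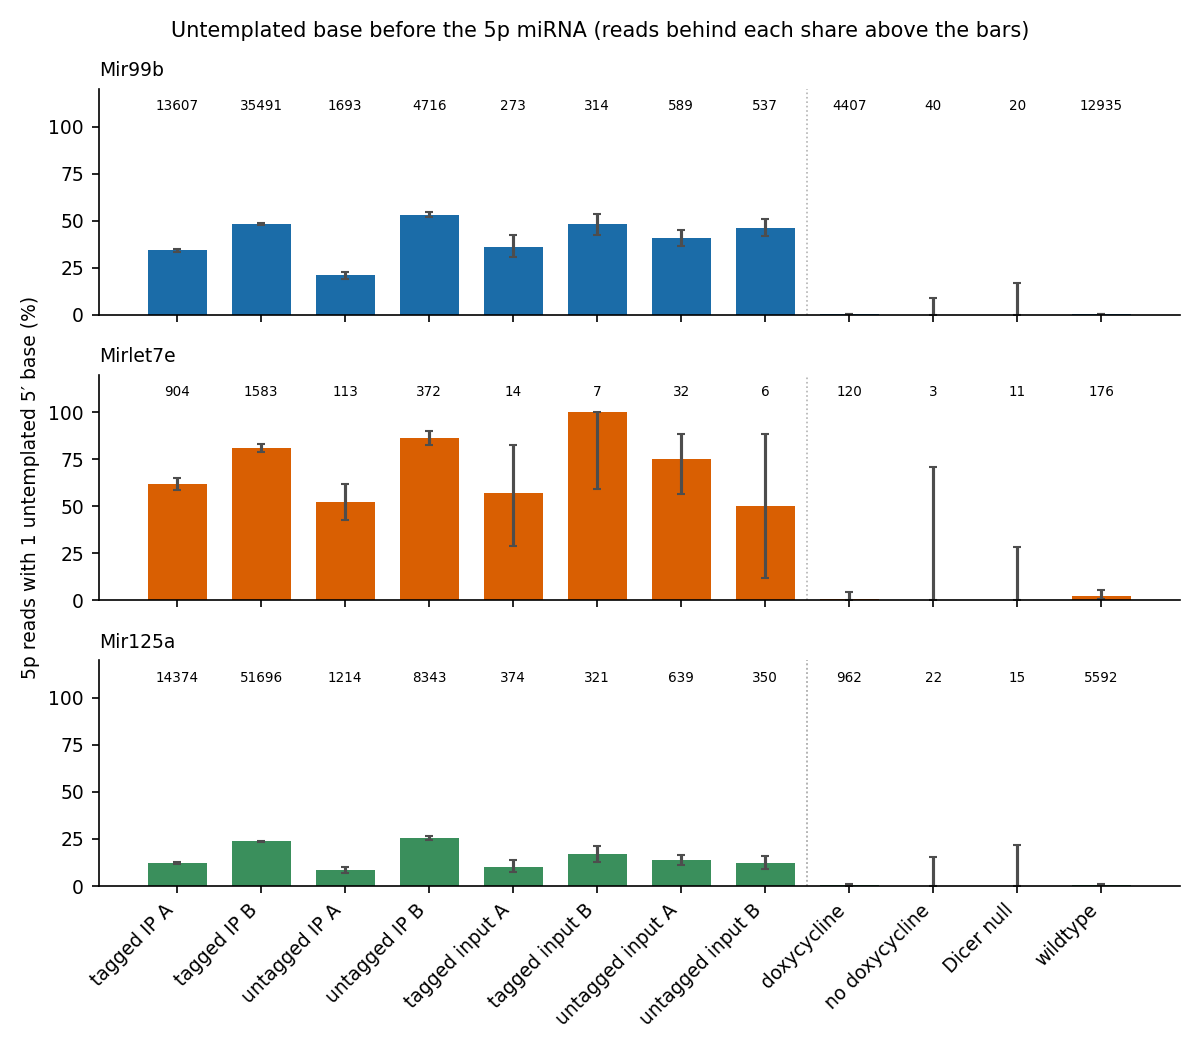
Share of 5p reads with 1 untemplated base before the miRNA in each library (%, bars with exact binomial intervals), with the reads behind each share above the bars. Mirlet7e has the highest share and Mir125a the lowest in each of the 8 circularization libraries, and the ligation libraries reach at most 2.27%.

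In the ligation libraries with doxycycline and from wildtype cells nearly all 5p reads of the 3 hairpins began at one base, while their 3′ ends varied. Among exact 5p reads, the RefSeq 5′ end took 98.9% for Mir99b, 99.2% for Mirlet7e and 99.4% for Mir125a with doxycycline, and 99.3%, 99.4% and 99.6% in the same order in wildtype cells. In the tagged IP it took 84.3% and 76.3% for Mir99b, 78.5% and 53.2% for Mirlet7e and 95% and 92.8% for Mir125a. Across the circularization libraries Mir125a kept 89.5 to 95.8% and Mir99b 61.8 to 89.1%. The IPs did not separate from each other or from the tagged input in this share for Mir99b or Mir125a (exact permutation test, two-sided, p of 0.667 to 1). At the 3′ end the RefSeq position took 69.7% and 70.1% for Mir99b in the tagged IP, 84.2% with doxycycline and 84.3% in wildtype cells. For Mir125a it took only 35.7% and 48.4% in the tagged IP, against 31.0% and 33.0% in the tagged input, without overlap (exact permutation test, two-sided, p = 0.33, the smallest possible). With each distinct sequence counted once, the difference turned to -6.05 percentage points, which cannot be told apart from the difference in read depth.

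MiR-125a-5p was thus read as a mixture of forms that end 1 base apart. The pair below is printed to show the 2 main ones, with no capitals because both match the hairpin throughout.
miR-125a-5p, 24 nt: tccctgagaccctttaacctgtga
miR-125a-5p, 23 nt: tccctgagaccctttaacctgtg
In the circularization libraries the 24 nt form had 31.5% and the 23 nt form 30.0% of 5p reads, and in the ligation libraries they had 34.6% and 38.9%. Median read lengths were 22 nt for Mir99b and Mirlet7e and 23 nt for Mir125a in all libraries that had at least 50 reads of the hairpin, except 21 nt for Mir99b in cells without doxycycline, which had 51 reads.

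Untemplated A or T was also found at the 3′ end of 5p reads, in both protocols. A single or double 3′ addition made of A was on 5.99% and 5.74% of Mir99b 5p reads in the tagged IP, 7.69% with doxycycline and 10.5% in wildtype cells. T was on 2.40% and 2.73% in the tagged IP, 3.94% with doxycycline and 5.45% in wildtype cells. The tagged IP lay below its input for this share, at 3.03% and 2.82% (6 and 5 reads), and above the untagged IP, at 1.22% and 2.19%, both without overlap (exact permutation test, two-sided, p = 0.33 for each, the smallest possible). In reads of 20 nt or longer the difference from the input turned to 0.158 percentage points. For Mir125a, T was on 2.62% and 2.38% in the tagged IP, against 1.15% and 0.735% in the tagged input and 1.58% and 1.93% in the untagged IP. The tagged IP lay above both without overlap (exact permutation test, two-sided, p = 0.33 for each, the smallest possible), but the tagged input shares rest on 4 and 2 reads. For Mirlet7e, T was on 11.3% with doxycycline, 18 of 159 reads, and on 5.71% in wildtype cells, 12 of 210 reads.

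The single libraries show the cluster in TT-FHAgo2 cells with and without doxycycline, in Dicer null cells and in wildtype cells. They have no replicates, so ratios are given with 95% exact binomial (Clopper-Pearson) intervals and no test. Mir99b had 168 CPM with doxycycline, against 1.92 CPM without it. Mirlet7e had 4.53 CPM with doxycycline, against 0.151 CPM (4 reads) without it. Mir125a had 35.4 CPM with doxycycline, against 1.47 CPM without it. The ratio was 87.3 for Mir99b (66.3 to 117), 30.0 for Mirlet7e (11.4 to 112) and 24.1 for Mir125a (17.5 to 34.1), so Mir99b differed from Mir125a beyond counting error. All 3 were among the hairpins more than 2-fold higher with doxycycline, 256 of 327 with at least 100 reads in the pair (78.3%), and the median ratio was 30.5. Per hairpin read the ratios were 11.0, 3.80 and 3.05 in the same order.

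Cells without doxycycline and Dicer null cells both held far fewer reads of the cluster than wildtype cells. Wildtype cells had 421 CPM of Mir99b, 5.43 CPM of Mirlet7e and 176 CPM of Mir125a. Without doxycycline Mir99b was 219-fold lower than in wildtype cells (167 to 294), Mirlet7e 36.0-fold lower (13.8 to 134) and Mir125a 120-fold lower (87.4 to 168). There 328 of 386 hairpins were more than 2-fold lower (85.0%), with a median of 55.6-fold. Dicer null cells had 0.292 CPM of Mir99b (23 reads), 0.178 CPM of Mirlet7e (14 reads) and 0.279 CPM of Mir125a (22 reads). That was 1442-fold lower than wildtype for Mir99b (960 to 2275), 30.5-fold lower for Mirlet7e (17.7 to 57.0) and 629-fold lower for Mir125a (415 to 1005). There 328 of 421 hairpins were more than 2-fold lower (77.9%), with a median of 123-fold. The 3 hairpins, far apart in wildtype cells, thus stood at 0.178 to 0.292 CPM in Dicer null cells, with overlapping intervals. Per hairpin read the Dicer null level was 0.0103 of wildtype for Mir99b, 0.487 for Mirlet7e and 0.0236 for Mir125a.

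With doxycycline, the tagged Ago2 line stood closer to wildtype for Mirlet7e than for Mir125a. The ratio of cells with doxycycline to wildtype cells was 0.398 for Mir99b (0.385 to 0.412), 0.835 for Mirlet7e (0.658 to 1.06) and 0.202 for Mir125a (0.188 to 0.216). Mir99b and Mir125a were among the 228 of 396 hairpins more than 2-fold lower (57.6%), Mirlet7e was not, and the median ratio was 0.400. Per hairpin read the ratios were 0.818, 1.71 and 0.414 in the same order, so on that scale Mirlet7e lay above wildtype. The comparison crosses cell lines and has 1 library a side.

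The few reads left in Dicer null cells included long ones. Of them 5 of 23 for Mir99b (21.7%, 7.46 to 43.7), 4 of 14 for Mirlet7e (28.6%, 8.39 to 58.1) and 7 of 22 for Mir125a (31.8%, 13.9 to 54.9) were 27 nt or longer. In wildtype cells 4 of 13579, 0 of 175, where a floor of 3 reads would be a share of 1.71%, and 1 of 5669 were. The longest such read of each hairpin is shown because it runs on from the 5p miRNA, in capitals, into the loop. That of Mir99b runs through the loop to base 46 of the hairpin, where the most frequent 3p read begins at base 45.
Mir99b, 40 nt: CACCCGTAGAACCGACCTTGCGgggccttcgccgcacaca
Mirlet7e, 40 nt: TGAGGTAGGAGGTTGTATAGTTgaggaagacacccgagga
Mir125a, 32 nt: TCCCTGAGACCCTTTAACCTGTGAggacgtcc
The first and second of these were read once each and the third 2 times, and reads of the ligation libraries end at 40 nt, so the RNAs behind the 40 nt reads may be longer. Reads of 27 nt or longer were not limited to Dicer null cells. For Mir125a they made up 4.80% of tagged input A, 18 of 375 reads, none of 308 in tagged input B, and 4.20% and 2.33% of the untagged input. In the tagged IP they were 2 of 13014 and 1 of 40470.

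The members stood in different places among relatives that share their seeds, which were taken as lists. Mir99b outnumbered the other miR-99 family hairpins, Mir99a and Mir100, which summed to 1.10 and 1.59 CPM in tagged IP libraries and 10.2 CPM in wildtype cells, against 564 and 634 CPM and 421 CPM for Mir99b itself. Mir125a stood at 792 and 1345 CPM in the tagged IP, where the miR-125b hairpins summed to 45.2 and 61.6 CPM. In the tagged input it stood at 25.1 and 16.6 CPM beside 1.20 and 1.61 CPM. In the ligation library with doxycycline it was at 35.4 beside 6.76 CPM, while in wildtype cells the levels were close, at 176 and 154 CPM. The wildtype library differs from the IP in protocol and cell line, and their parts in this cannot be told apart. Mirlet7e was a small share of its family, at 22.6 and 12.5 CPM in the tagged IP beside 563 and 561 CPM for the other let-7 hairpins, and at 5.43 beside 153 CPM in wildtype cells. The exact match leaves out most Mirlet7e 5p reads of the tagged IP but keeps reads with T of Mirlet7a-2 and Mirlet7c-1; with the extra base allowed Mirlet7e stood at 56.7 and 55.3 CPM there, and the other let-7 hairpins were not recounted that way. All 17 let-7 features tested rose in the tagged IP over its input, 12 in the tagged over the untagged IP and 13 in the untagged IP over its input, with median log2 fold changes of 4.88, 2.10 and 2.17 (edgeR, same thresholds). Over all hairpins 83.4%, 78.2% and 49.0% rose, with medians of 4.86, 2.42 and 1.91. Both miR-125b features tested rose in the tagged IP over its input and over the untagged IP, and 1 of them in the untagged IP over its input, beside the same shares over all hairpins. Neither of the miR-99 family features passed the filter on low counts. Reads shared by several hairpins of a list were counted once, as a feature of their own.

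The members' levels across the 12 libraries ran alike, as a description of libraries that share depth and protocol. Pearson's r of log2(CPM + 0.1) was 0.951 between Mir99b and Mir125a, 0.931 between Mir99b and Mirlet7e and 0.871 between Mirlet7e and Mir125a. Among 293 hairpin features with a mean of at least 10 CPM, the 3 most like Mir99b were the reads shared by Mir128-1 and Mir128-2 (0.998), those of Mir128-1 alone (0.996) and those shared by Mir129-1 and Mir129-2 (0.994). The 3 most like Mirlet7e were Mir134 (0.982), Mirlet7i (0.978) and Mir409 (0.977), and the 3 most like Mir125a were Mir669o (0.992), Mir466h (0.991) and Mir676 (0.991). These names changed with the scale: with a pseudocount of 1 CPM, 1 of the 3 stayed for Mir99b and 0 for Mir125a.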

How the data were processed

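Small RNA was read in 12 libraries of mouse embryonic stem cells. The deposited files list distinct read sequences with a count of reads each, per the file contents; the trimming, any filter and the aligner are not given in the sources used here. Reads of 18 nt or longer were matched exactly, on the sense strand, to the 2202 miRNA hairpins among the GENCODE M21 transcripts (GRCm38), and their counts were summed per hairpin, or per group of hairpins that share the read. Positions are those of GENCODE M21 and mature sequences those of RefSeq (GRCm38.p6). Base differences and arms were computed from these.

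CPM was scaled to the total of each file. Counts of the 8 replicated libraries were fitted with edgeR 4.0.16 (R 4.3.3), quasi-likelihood, 1 model with 4 groups, file totals as library size, filterByExpr and Benjamini-Hochberg adjustment over 698 hairpin features, or 940 hairpin arms (each hairpin split at its middle); a call is an adjusted p under 0.05. Shares were compared with an exact two-sided permutation test over libraries and carry 95% Clopper-Pearson intervals. Single libraries were compared over hairpins with at least 100 reads in a pair, and called past 2-fold. Alternatives were TMM, DESeq2 1.42.0, hairpin reads as library size, no filter on low counts, reads of 20 nt or longer, up to 2 untemplated 3′ bases, each distinct sequence counted once, a replicate block and leaving out each library. Allowing 1 untemplated 5′ base was chosen after seeing the data. Python 3.11.15 with pandas 2.3.3, numpy 2.4.6, scipy 1.17.1 and matplotlib 3.10.9 did the matching, tests and plots. The fit was tested on simulated counts with a fixed spread for all hairpins and no shared replicate effect. That run gives no error rate for these data. The genes named beyond the 3 hairpins are their relatives and, for each, the 3 features with the highest correlation. The members and lists were chosen with earlier results of these data known.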

Additional observations from a re-analysis of the deposited data

Results flagged for a closer look

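The gain from input to IP differed between the tagged and the untagged line for each hairpin, by 3.57 for Mir99b, 4.05 for Mirlet7e and 2.98 for Mir125a on the log2 scale, tested as an interaction in edgeR; the values and the libraries they rest on are given above.

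Reads with 1 untemplated 5′ base lie outside the exact matches and were above 0 throughout the circularization libraries. In the tagged IP they averaged 71.5% ± 13.6 of 5p reads for Mirlet7e, 41.2% ± 9.70 for Mir99b and 18.0% ± 8.21 for Mir125a (SD, n = 2 each). Their source was not tested.

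Reads on the opposite strand are outside the measurement as well. Mir125a had 7 of them in tagged IP B, beside 40470 reads on its own strand there. Mir99b had 2 in tagged IP A and 3 in tagged IP B.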

How the results depend on the processing

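What the reads were divided by changed the results most, and the cause was not tested. Values follow for TMM, DESeq2, hairpin reads as library size, and the last with 1 untemplated 5′ base allowed. The hairpins tested numbered 698, 698, 570 and 585 in that order. For the tagged over the untagged IP, Mir99b was at 0.20, 0.18, 0.28 and 0.36, Mirlet7e at -0.025, -0.064, -0.0032 and -0.10 and Mir125a at 0.13, 0.12, 0.24 and 0.32, with 1, 0, 0 and 0 hairpins called higher and 98, 103, 122 and 124 lower (112, 108, 136 and 141 at an unadjusted p under 0.05). For the tagged IP over its input, Mirlet7e was at 1.48, 1.35, 1.5 and 1.67 (called in the last only) and Mir125a at 1.08, 0.98, 1.21 and 1.32, with 37, 41, 35 and 38 hairpins called higher and 120, 125, 154 and 168 lower; Mir99b kept its call. For the untagged IP over its input, Mir99b was at 0.34, 0.33, 0.47 and 0.31, Mirlet7e at 0.14, 0.13, 0.24 and 1.04 and Mir125a at 0.73, 0.72, 0.83 and 0.78, with 3, 12, 2 and 3 called higher and 53, 71, 49 and 58 lower. For the difference in gain, Mir99b was at 0.82, 0.72, 0.80 and 0.98, Mirlet7e at 1.34, 1.23, 1.26 and 0.63 and Mir125a at 0.35, 0.25, 0.38 and 0.54, with 0 hairpins called higher and 77, 94, 85 and 93 lower (115, 111, 135 and 143 at an unadjusted p under 0.05). Without a filter on low counts, Mirlet7e in the untagged IP over its input was at 1.92 (adjusted p = 0.0874, edgeR). Allowing untemplated bases or reads of 20 nt or longer, with file totals, changed none of the calls of the 3 hairpins.

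Per hairpin read, the single-library ratios for Mir99b, Mirlet7e and Mir125a were 11.0, 3.80 and 3.05 with over without doxycycline, 0.0741, 0.451 and 0.136 without doxycycline over wildtype, 0.0103, 0.487 and 0.0236 for Dicer null over wildtype and 0.818, 1.71 and 0.414 with doxycycline over wildtype. Among the planned shares, 10 differences of the tagged IP from its input or from the untagged IP had groups that did not overlap. Of their 74 alternatives, 5 had the other sign. Differences of the untagged IP from its input, shares of long reads and shares of untemplated 5′ bases were not in this count. The tagged IP minus tagged input T tail share of Mir99b was 0.158 in reads of 20 nt or longer and 1.05 with each distinct sequence counted once. The latter count also gave 4.27 for the Mir99b 3p share (tagged minus untagged IP). It gave 1.5 for the Mir125a 3p share and -6.05 for its main 3′ end (both tagged IP minus tagged input). Counts of distinct sequences grow with read depth, which differed between these groups, so their turns of sign decide nothing.

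Leaving out 1 library at a time gave 1.87 to 2.73 for Mirlet7e and 1.62 to 3.97 for Mir125a in the tagged over the untagged IP. In the untagged IP over its input it gave 1.85 to 2.52 for Mir99b, 1.82 to 2.03 for Mirlet7e, 1.09 to 3.44 for Mir125a and 8 to 372 hairpins called higher. In the difference in gain it gave 3.27 to 3.94, 3.51 to 4.79 and 2.24 to 4.59 in the same order and 0 to 402 called higher. A lone library was assumed to vary like the other groups.

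With a replicate block the pairing changed no call of the 3 hairpins: Mir99b, Mirlet7e and Mir125a were at 2.55, 2.30 and 2.47 in the tagged over the untagged IP, with 564 hairpins called higher, and at 5.78, 5.95 and 5.57 over the tagged input. Libraries of one code deviated together with r of 0.0696 to 0.477 over 698 hairpins, positive in all 6 pairs of groups, as a hint of pairing. The labels give the codes no meaning and there are 2 codes only, so the fit without the block was kept. A fit of the 2 groups of a contrast alone could not be run for the difference in gain. Depth limits Mirlet7e most, with 3 to 16 reads in the inputs.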
